A study of Mus musculus with 38 samples.

Results

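The 6 Zscan4 genes of the mouse (Zscan4a to Zscan4f) and the genes Tcstv1 and Tcstv3 were taken by gene symbol from the deposited table, which made 8 of its 23125 genes. The values came from RNA of ICR mouse oocytes and embryos that had been separated on sucrose gradients, in which the 5 heavier of 10 fractions made the polysome sample and the 5 lighter ones the non-polysome sample. The table held 6 stages. Fully grown germinal vesicle oocytes (GV) were isolated with IBMX, which holds meiosis, and denuded of their cumulus cells, and MII oocytes had matured from them in culture. Zygotes in interphase were taken from mated females, and two-cell embryos in interphase grew from such zygotes in culture. Zygotes and two-cell embryos in M-phase (zygote M and two-cell M) had in addition been treated with nocodazole, a drug that depolymerises microtubules, so that M-phase and the drug cannot be told apart in any comparison with an interphase group. All females had received the gonadotropin PMSG, and those mated for embryos had also received hCG, a further gonadotropin. Treatment with hCG and mating therefore cannot be told apart from stage between oocytes and embryos. All cells had been exposed to cycloheximide before lysis, and no group carried a genetic change. The sample labels describe the M-phase embryos as being in M-phase of meiosis, whereas the study's methods place them at metaphase of the embryo. There were 3 libraries for each stage and fraction, hence 36 libraries in 12 groups, and 2 further zygote samples without a column were not used. Replicates carried the letters A, B and C, and in zygotes B, C and D.

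Zscan4 genes encode nuclear proteins with a SCAN domain and zinc fingers. They are known for a short burst of transcription in the two-cell mouse embryo, at the time of major activation of the embryonic genome, and for a similar burst in rare embryonic stem cells, where ZSCAN4 is linked to telomere lengthening by recombination and to loss of DNA methylation. Tcstv genes, named as a variable group of two-cell stage transcripts, encode small proteins that have also been linked to telomere length in stem cells. An mRNA that carries several ribosomes sediments in the polysome fractions, whereas a stored mRNA, or one that carries few ribosomes, stays in the lighter ones.

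All Zscan4 members lie in 1 cluster on chromosome 7 (GRCm38). Zscan4a spans chr7:10794242-10799057 on the minus strand and is annotated as an unprocessed pseudogene. Zscan4b (chr7:10900740-10905050, minus strand), Zscan4c (chr7:11005745-11010547, plus strand), Zscan4d (chr7:11161374-11166159, minus strand), Zscan4e (chr7:11306378-11310682, minus strand) and Zscan4f (chr7:11397915-11402318, plus strand) are annotated there as protein-coding, whereas RefSeq lists Zscan4e as a pseudogene. Both Tcstv members lie on chromosome 13, Tcstv1 at chr13:119893388-119894785 on the minus strand and Tcstv3 at chr13:120316878-120318178 on the plus strand.

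Promoters of 4 of the 8 members, Zscan4b, Zscan4c, Zscan4d and Zscan4f, were matched in RefSeq (GRCm38.p6). They are shown because all 4 genes had their highest mean level in polysomes in two-cell embryos. A further reason is that the copies are so alike that their reads are hard to tell apart. Each line gives 150 bases upstream of the annotated start, 5′ to 3′ on the strand of the gene, that end 20 bases after a TATAAAA element, which is in capitals. Zscan4b is from chr7:10905055-10905204 (minus strand), Zscan4c from chr7:11005568-11005717 (plus strand), Zscan4d from chr7:11166187-11166336 (minus strand) and Zscan4f from chr7:11397761-11397910 (plus strand).
Zscan4b: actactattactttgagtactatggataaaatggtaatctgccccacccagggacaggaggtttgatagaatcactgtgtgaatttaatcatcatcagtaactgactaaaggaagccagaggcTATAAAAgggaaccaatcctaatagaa
Zscan4c: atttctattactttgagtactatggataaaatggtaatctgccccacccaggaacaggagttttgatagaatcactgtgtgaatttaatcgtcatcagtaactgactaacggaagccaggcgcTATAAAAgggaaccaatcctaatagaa
Zscan4d: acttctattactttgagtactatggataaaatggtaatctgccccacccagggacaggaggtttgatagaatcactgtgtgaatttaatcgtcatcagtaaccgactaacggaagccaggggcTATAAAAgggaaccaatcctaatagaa
Zscan4f: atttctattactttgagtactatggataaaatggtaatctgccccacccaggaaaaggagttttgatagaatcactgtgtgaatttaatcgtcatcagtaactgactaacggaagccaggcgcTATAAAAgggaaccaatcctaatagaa

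These windows differed at 10 of 150 positions, with 1 to 9 differences between any pair of genes. Zscan4c and Zscan4f differed at 1 position, and Zscan4b and Zscan4f at 9. The TATAAAA element began 31 bases before the annotated start of Zscan4b and Zscan4f, 54 before that of Zscan4c and 65 before that of Zscan4d. These distances are to the start in RefSeq, which for Zscan4d lies inside the gene span given above. Among 32851 RefSeq promoters, the 250 bases before the start held TATAAAA on either strand in 4.98%. A motif of the two-cell activator DUX occurred on either strand in 0.0304% of promoters, and TAATCC, the core bound by OBOX and OTX homeodomain factors, in 6.25%. Neither motif occurred in the 250 bases of the 4 Zscan4 promoters, which says nothing of binding by these factors outside this window or at other letters.

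The copies were nearly identical over their transcripts as well. Between pairs of the 6 Zscan4 genes, the longest GENCODE transcripts were 94.1% to 97.9% identical, and the coding sequences of the 5 annotated as protein-coding were 96.4% to 99.7% identical. Sequenced reads were 150 bases long. In Zscan4f, 86.2% of all 150-base windows of the longest transcript occurred whole in a transcript of another gene. The share was 77.4% in Zscan4e, 68.4% in Zscan4b, 61% in Zscan4c, 25.1% in Zscan4a and 13% in Zscan4d. Zscan4d was therefore the copy whose reads can be placed most often, and how the authors counted reads that fit several copies is not given in the sources used here. Levels of single copies other than Zscan4d are uncertain for this reason, also where a test is given below.

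Tcstv1 and Tcstv3 were 94.5% identical over their coding sequences of 513 and 507 bases, yet no 150-base window of the longest transcript of either occurred in another gene. The first 150 coding bases of both genes are printed to show how reads tell them apart, with the 5 positions that differ in capitals. They lie in exon 2 of 2, at chr13:119893945-119894094 (minus strand) for Tcstv1 and chr13:120317567-120317716 (plus strand) for Tcstv3 (GRCm38).
Tcstv1: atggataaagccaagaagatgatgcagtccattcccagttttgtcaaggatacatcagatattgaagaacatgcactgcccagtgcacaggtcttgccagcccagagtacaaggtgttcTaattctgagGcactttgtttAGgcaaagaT
Tcstv3: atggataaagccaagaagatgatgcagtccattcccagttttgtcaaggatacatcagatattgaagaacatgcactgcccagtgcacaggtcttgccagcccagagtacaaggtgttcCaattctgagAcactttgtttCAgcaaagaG

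Expression is given as FPKM (fragments scaled to the length of the gene and to the mapped fragments of the library) as deposited. The smallest value in the table was 0.01, which is called the floor here. FPKM is scaled within each library, so a value is a share of that library's RNA, and neither fewer embryos nor less RNA per embryo can be told apart from it. The depth of the libraries is unknown, since the table holds no counts. The sum over all genes was between 88982 and 247361 FPKM per library, and 5140 to 10525 genes were over 0.1 FPKM. Non-polysome libraries of two-cell M had the fewest such genes, 5140 to 5889.

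Several two-cell M libraries stood apart from their replicates in the members. In polysomes of two-cell M, library A had 0.759 FPKM of Tcstv1 against 32.7 and 59.9 in B and C. In non-polysome RNA of two-cell M, library B had 0.0945 FPKM of Tcstv1 against 90.6 and 117 in A and C. In the same group, library C had a summed Zscan4 level of 0.121 FPKM against 30.0 in A and 24.6 in B. Different members were thus low in different libraries. Of the 11 oocyte markers listed, all were in the table, and their summed level was 6731 to 8212 FPKM in polysomes of GV oocytes, 569 to 637 in those of two-cell embryos and 53.9 to 236 in those of two-cell M. Zygote M, at 507 to 747 FPKM, overlapped two-cell embryos.

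Zscan4 RNA was concentrated in the two-cell embryo in both fractions. Summed over the 6 genes, it was 39.0, 19.8 and 22.9 FPKM in the polysome libraries of two-cell embryos (27.3 ± 10.3, SD, n = 3) and 51.6, 66.6 and 96.0 FPKM in the non-polysome ones (71.4 ± 22.6, SD, n = 3). Every one of these sums exceeded those of all 24 oocyte and zygote libraries. In polysomes of two-cell M, the sum was 8.43, 3.29 and 13.7 FPKM (8.46 ± 5.19, SD, n = 3), below all polysome libraries of interphase two-cell embryos. Outside the two-cell and two-cell M groups, the group means of the sum were between 0.191 and 2.64 FPKM. With 3 libraries against 3, an exact permutation test of such a sum cannot give a p under 0.1, so none is given.

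**Figure D1:**
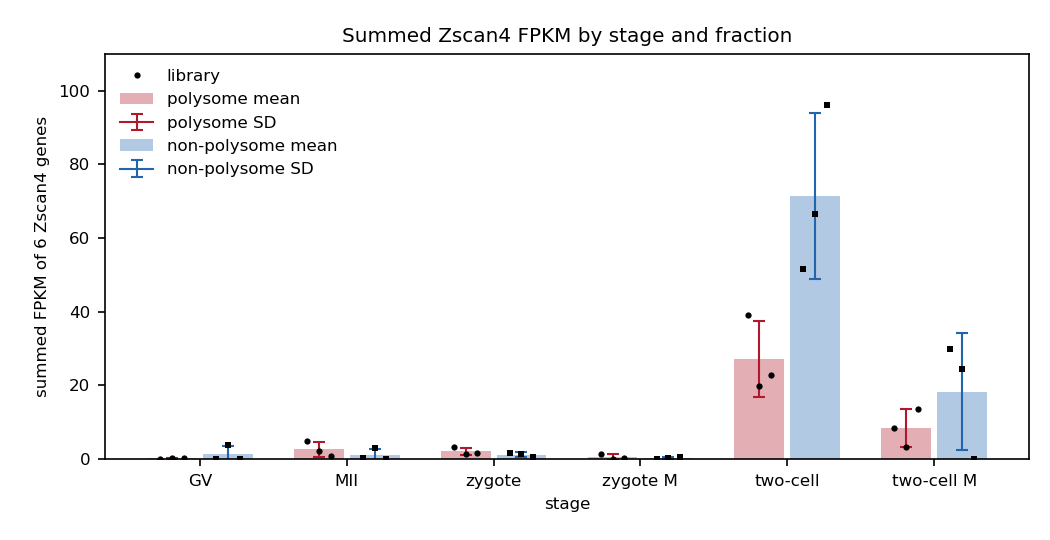
Summed FPKM of the 6 Zscan4 genes (linear axis) at each stage, in polysomes (red bars) and non-polysome RNA (blue bars). Bars are means of 3 libraries, error bars are SD (cut at 0) and black symbols are single libraries. Two-cell embryos had means of 27.3 and 71.4 FPKM, and all oocyte and zygote means were at or under 2.64 FPKM.

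Zscan4d, the copy described as predominant in two-cell embryos, had the highest mean of the 6 in both fractions of that stage. Its level in polysomes of two-cell embryos was 9.96, 8.62 and 5.69 FPKM (8.09 ± 2.19, SD, n = 3), and in non-polysome RNA 42.3, 18.6 and 34.8 FPKM (31.9 ± 12.1, SD, n = 3). Zscan4c, the copy described as prominent in stem cells, had 9.27, 2.38 and 5.55 FPKM in polysomes and 4.12, 21.2 and 12.3 FPKM in non-polysome RNA. Zscan4f was at 7.98, 2.71 and 5.16 FPKM in polysomes and at 2.44, 15.7 and 36.2 FPKM in non-polysome RNA. These 3 copies overlapped in polysomes, so their order there was within the spread of the libraries.

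The pseudogene Zscan4a reached 7.74, 4.33 and 1.41 FPKM in polysomes of two-cell embryos and 1.70, 10.2 and 5.86 FPKM in non-polysome RNA, which overlapped Zscan4c and Zscan4f. Zscan4e was lower, at 2.95, 1.02 and 2.80 FPKM in polysomes and 1.02, 0.764 and 4.21 FPKM in non-polysome RNA. Zscan4b was lowest by its mean, with 1.13, 0.773 and 2.31 FPKM in polysomes, overlapping Zscan4e. In non-polysome RNA, Zscan4b was at the floor in libraries A and B and at 2.60 FPKM in C. By mean in polysomes of two-cell embryos the order was Zscan4d (8.09 FPKM), Zscan4c (5.73), Zscan4f (5.28), Zscan4a (4.49), Zscan4e (2.25) and Zscan4b (1.41), and no 2 neighbours in this order were without overlap.

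**Figure D2:**
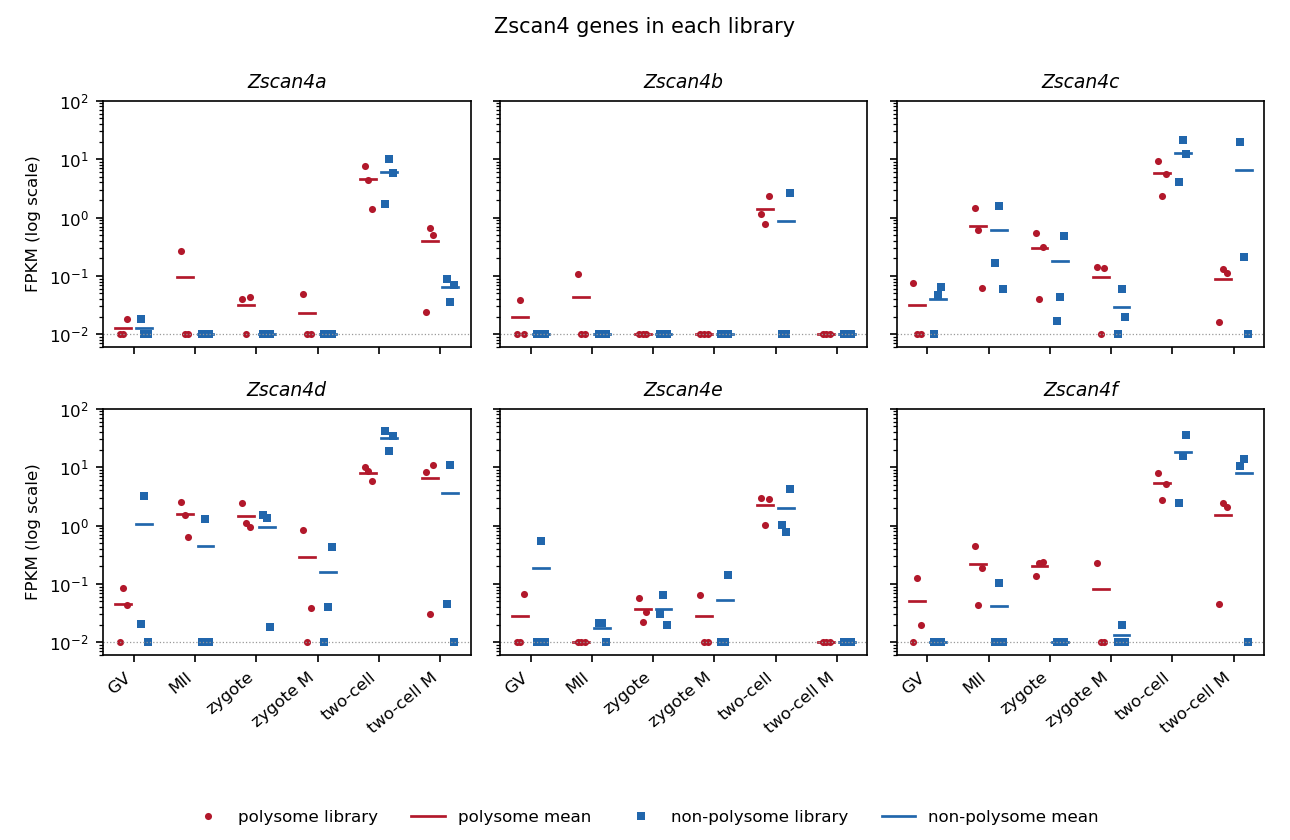
FPKM (log axis) of each Zscan4 gene in every library, by stage, with polysome libraries as red circles and non-polysome libraries as blue squares. Horizontal lines are group means and the dotted line is the floor of 0.01 FPKM. Two-cell libraries of Zscan4d reach 42.3 FPKM, and all two-cell M libraries of Zscan4b and Zscan4e lie on the floor.

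Tcstv RNA was more abundant and was not limited to two-cell embryos. Tcstv1 had its highest mean in non-polysome RNA of two-cell embryos, at 288, 145 and 189 FPKM (207 ± 73.2, SD, n = 3), with 85.4, 96.0 and 61.5 FPKM in polysomes of the same stage. Yet polysomes of GV oocytes held 190.4, 268 and 151 FPKM of it (203 ± 59.7, SD, n = 3). Their mean was above that of polysomes of two-cell embryos, a difference that did not pass the threshold in the test given below. Tcstv1 was lower in polysomes of MII oocytes, at 45.7, 29.2 and 51.7 FPKM, and of zygotes, at 46.1, 34.7 and 39.3 FPKM. Polysomes of zygote M held 158, 74.4 and 165 FPKM, which did not overlap zygotes. By mean in polysomes the order for Tcstv1 was GV (203 FPKM), zygote M (132), two-cell (81.0), MII (42.2), zygote (40.02) and two-cell M (31.1). GV and zygote M overlapped, as did zygote M and two-cell, MII and zygote, and zygote and two-cell M, whereas two-cell and MII did not.

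By mean, Tcstv3 was highest in two-cell embryos in both fractions. Its non-polysome level there was 364, 214 and 151 FPKM (243 ± 110, SD, n = 3), against group means of 14.9 to 27.1 FPKM in non-polysome RNA of oocytes and zygotes. In polysomes, the two-cell libraries had 60.2, 72.2 and 38.2 FPKM of Tcstv3 (56.8 ± 17.3, SD, n = 3), which overlapped GV oocytes, zygote M and two-cell M. GV oocytes had 30.5, 54.8 and 24.8 FPKM in polysomes, MII oocytes 9.41, 10.7 and 11.9, zygotes 16.3, 12.5 and 15.1, and zygote M embryos 50.2, 30.2 and 42.5. Polysome levels of Tcstv3 in MII oocytes and zygotes were thus below those of every other stage but two-cell M, where single libraries ranged from 0.1296 to 51.5 FPKM.

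A pair of close relatives in the chromosome 13 cluster, AF067061 and Gm20767, were near the floor in oocytes. AF067061 had at most 0.115 FPKM in any GV or MII library, and 35.9, 33.4 and 31.3 FPKM in polysomes of two-cell embryos. Gm20767 was at 0.778, 1.19 and 0.650 FPKM in polysomes of two-cell embryos and at most 0.0336 FPKM in oocytes and zygotes. AF067061 reached 8.15 FPKM in 1 non-polysome library of zygote M, a group whose mean was 2.78 FPKM.

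**Figure D3:**
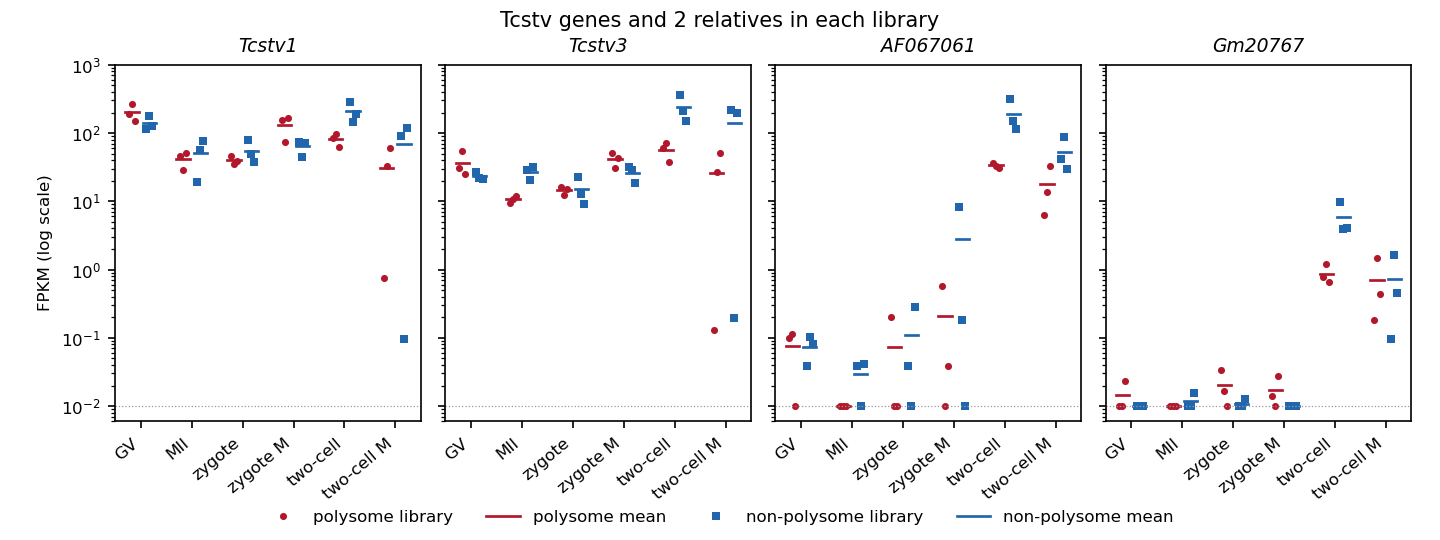
FPKM (log axis) of Tcstv1, Tcstv3 and their relatives AF067061 and Gm20767 in every library, by stage. Red circles are polysome libraries, blue squares non-polysome libraries, horizontal lines group means and the dotted line the floor of 0.01 FPKM. Tcstv1 and Tcstv3 are over 9 FPKM in all oocyte and zygote libraries, and 1 two-cell M library of each fraction is under 1 FPKM for both genes.

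Whether the burst reached the polysomes was asked by comparing two-cell embryos with zygotes within the polysome fraction. All 8 members were higher in every polysome library of two-cell embryos than in any of zygotes, which held for 12.2% of the 16135 genes tested. With limma over all 36 libraries, and a call at an adjusted p under 0.05 and a fold change over 2, 3 members were called higher, beside 5.14% of genes. Zscan4a rose by a log2 fold change of 7.11 ± 1.13 (SE, adjusted p = 6.82e-05), and Zscan4e by 5.88 ± 1.18 (adjusted p = 0.0011). Zscan4b was also called (adjusted p = 0.000216). All polysome libraries of zygotes list it at the floor, so no fold is given. These are the copies with the lowest levels, and only 9, 8 and 5 of 36 libraries had over 0.1 FPKM of Zscan4a, Zscan4e and Zscan4b. A gene was tested if at least 3 libraries were over that level, and 3 of the 5 for Zscan4b were polysome libraries of two-cell embryos. Of the 8 for Zscan4e, 6 were two-cell libraries of either fraction. Both genes were therefore tested only through the two-cell embryos in which they were high. Their calls and lack of overlap against that stage, and their part in the counts of members, are descriptions and support nothing. This holds here and in the comparisons that follow.

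The other members did not pass the threshold. Zscan4c was 4.70 ± 1.85 higher on the log2 scale (adjusted p = 0.0881) and Zscan4f 4.63 ± 1.85 (adjusted p = 0.0922). Zscan4d, which already had 2.40, 1.11 and 0.948 FPKM in polysomes of zygotes, differed by 2.53 ± 2.45 (adjusted p = 0.541). For Tcstv1 the difference was 1.002 ± 1.52 (adjusted p = 0.718) and for Tcstv3 1.92 ± 1.67 (adjusted p = 0.487). The spread in this fit is shared by all 12 groups, and it includes the 2 two-cell M libraries in which Tcstv was low. In a fit of the zygote and two-cell polysome libraries alone, all 8 members were called, beside 26.7% of genes called in either direction against 14.1% in the fit of all libraries, and the 5 gained in this way had adjusted p from 0.00285 for Zscan4f to 0.035 for Zscan4c. With those 2 two-cell M libraries left out of the fit of all groups, Tcstv3 was called higher as well (adjusted p = 0.00221), beside 15.6% of genes called in either direction.

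The same comparison was made in non-polysome RNA. Of the 8 members, 7 were higher in every two-cell library than in any zygote library, all but Zscan4b, beside 8.84% of genes, and 5 were called, beside 6.1% of genes. Zscan4c was 7.17 ± 1.85 higher on the log2 scale (limma adjusted p = 0.00518), Zscan4d 6.49 ± 2.45 (adjusted p = 0.0495) and Zscan4e 5.47 ± 1.18 (adjusted p = 0.00113). Zscan4a and Zscan4f were called too (adjusted p = 1.53e-06 and 0.000199), and zygotes list both at the floor in all 3 non-polysome libraries. Tcstv3 was 4.03 ± 1.67 higher (adjusted p = 0.0742), Tcstv1 1.93 ± 1.52 (adjusted p = 0.365) and Zscan4b 2.67 ± 1.21 (adjusted p = 0.105). In a fit of these 2 groups alone, in which 18.2% of genes were called in either direction, Tcstv1 and Tcstv3 were called (adjusted p = 0.0262 and 0.00511) and Zscan4d was not (0.082). Both Tcstv genes were also called when the 2 two-cell M libraries with low Tcstv were left out (0.00195 and 5.42e-08), beside 28.3% of genes in either direction. The call of Zscan4d was lost without non-polysome two-cell library A, B or C (adjusted p = 0.105, 0.0793 and 0.0903) or zygote library C or D (0.0558 and 0.253), and with both fractions of a gradient taken as a block (0.0527). Zscan4b became called without non-polysome two-cell library A or B, which list it at the floor (adjusted p = 0.0219 and 0.022).

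Whether the change from zygote to two-cell differed between the fractions was tested as an interaction. No member was called in the interaction, beside 0.83% of genes, and 2 of 8 had an unadjusted p under 0.05. Zscan4f had an interaction of -5.50 ± 2.61 on the log2 scale (adjusted p = 0.418) and Zscan4b of 4.31 ± 1.71 (adjusted p = 0.304). Standard errors over 1.5 on the log2 scale in all members leave wide intervals for this difference.

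**Figure D4:**
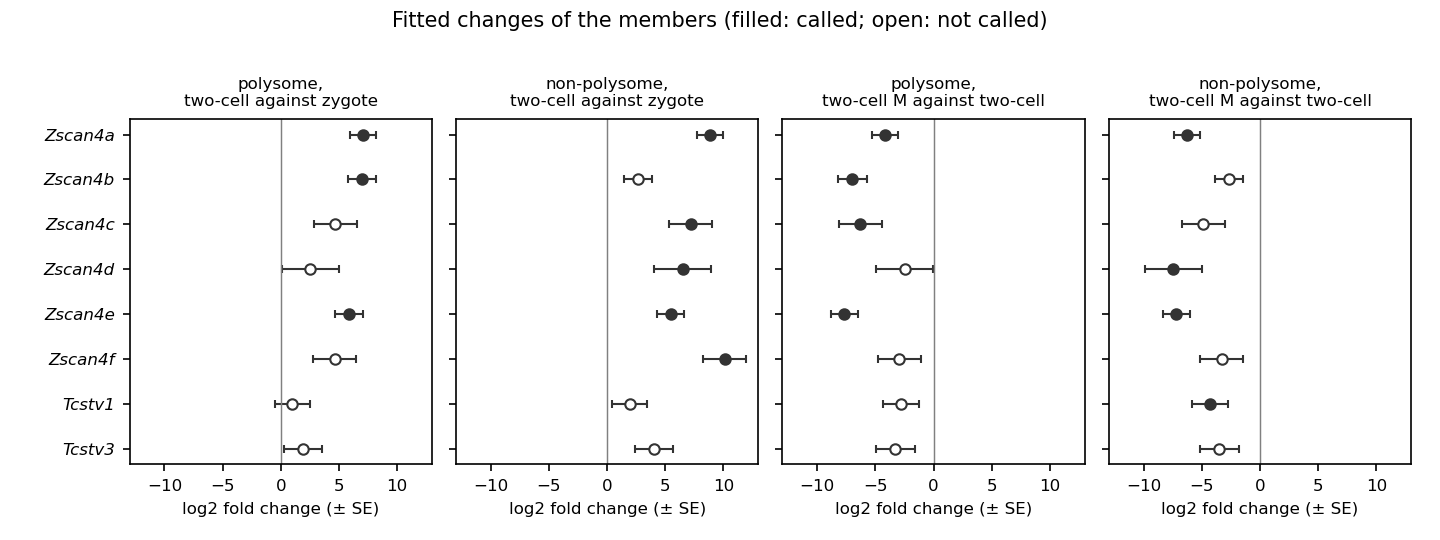
Log2 fold change of each member in 4 comparisons, as estimated by limma over all 36 libraries. Points are estimates and bars standard errors, filled where the change was called and open where it was not. All 8 estimates are above 0 in two-cell against zygote and below 0 in two-cell M against two-cell, and 3, 5, 4 and 4 of 8 are called from left to right. The size of a change against a group at the floor of 0.01 FPKM depends on that floor.

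The M-phase of the two-cell embryo was compared with its interphase next. In polysomes, 6 of 8 members were lower in all two-cell M libraries than in any interphase library, all but Zscan4d and Tcstv3, beside 18.4% of genes. Of the 8 members, 4 were called as lower there, beside 15.6% of genes. Zscan4c had 0.0162, 0.131 and 0.113 FPKM in two-cell M, a log2 fold change of -6.32 ± 1.85 (limma adjusted p = 0.0134). Zscan4a had 0.0239, 0.654 and 0.498 FPKM, a log2 fold change of -4.19 ± 1.13 (adjusted p = 0.00727). Zscan4b and Zscan4e were listed at the floor in all 3 polysome libraries and in all 3 non-polysome libraries of two-cell M (adjusted p = 9.67e-05 and 2.1e-05 in polysomes).

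Zscan4d was not called. Its polysome level in two-cell M was 8.32, 0.0301 and 10.96 FPKM, so that libraries A and C lay within or above the interphase range of 5.69 to 9.96 FPKM and library B was near the floor (-2.49 ± 2.45, adjusted p = 0.53). Without library B the difference was 0.28. Zscan4f was at 0.0451, 2.46 and 2.08 FPKM (-2.97 ± 1.85, adjusted p = 0.278). Tcstv1 had 0.759, 32.7 and 59.9 FPKM (-2.80 ± 1.52, adjusted p = 0.202) and Tcstv3 0.1296, 26.9 and 51.5 FPKM (-3.28 ± 1.67, adjusted p = 0.169). Library A was thus low in Tcstv1, Tcstv3 and Zscan4f while it held 8.32 FPKM of Zscan4d, and library B the reverse. Without polysome two-cell M library A, the adjusted p became 0.099 for Zscan4a and 0.0738 for Zscan4c, and without two-cell library A it was 0.052 for Zscan4c. Without two-cell M library C, Tcstv3 was called lower (adjusted p = 0.049). In a fit of these 2 groups alone, Zscan4a was not called (adjusted p = 0.177), where 10.6% of genes were called in either direction.

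In non-polysome RNA, 4 members fell from interphase to two-cell M by the call rule, beside 14.7% of genes. Zscan4a had 0.0892, 0.0358 and 0.0706 FPKM, a log2 fold change of -6.26 ± 1.13 (limma adjusted p = 0.000114). Zscan4e, at the floor, had an adjusted p of 3.09e-05. Zscan4d had 0.0460, 10.7 and 0.01 FPKM (-7.47 ± 2.45, adjusted p = 0.0291), and Tcstv1 90.6, 0.0945 and 117 FPKM (-4.31 ± 1.52, adjusted p = 0.0425). The call of Tcstv1 rested on library B, without which the difference was -0.95 (adjusted p = 0.598), and it was also lost without two-cell library A, B or C (0.109, 0.0644 and 0.0852). That of Zscan4d was lost without two-cell M library A or C (0.106 and 0.168) or two-cell library A or C (0.0722 and 0.069). In a fit of these 2 groups alone, Zscan4a was the 1 member called, beside 3.46% of genes in either direction, and Zscan4e (adjusted p = 0.0527), Zscan4d (0.33) and Tcstv1 (0.62) were not.

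The other 4 members were not called in non-polysome RNA. Zscan4c was at 19.5, 0.211 and 0.01 FPKM (adjusted p = 0.0616), Zscan4f at 10.4, 13.6 and 0.01 FPKM (adjusted p = 0.242) and Tcstv3 at 218, 0.192 and 198 FPKM (adjusted p = 0.158). Library A of Zscan4c, libraries A and B of Zscan4f and libraries A and C of Tcstv3 lay within the interphase range. Without two-cell M library A, Zscan4c was called (adjusted p = 0.00131) and so was Tcstv3 (0.0376), and Tcstv3 also without library C (0.0395). Without library C the difference of Zscan4f was 0.088 on the log2 scale, and without both two-cell M libraries low in Tcstv Zscan4f was called lower (adjusted p = 0.0474). Zscan4b, at the floor in all of two-cell M, was called only without two-cell library A or B (adjusted p = 0.0237 and 0.0223).

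Whether the change from two-cell to two-cell M differed between polysome and non-polysome RNA was tested as well. No member was called in that interaction, beside 3.39% of genes, and 1 of 8 had an unadjusted p under 0.05. The largest estimates were 4.98 ± 3.47 on the log2 scale for Zscan4d (limma adjusted p = 0.566) and -4.31 ± 1.71 for Zscan4b (adjusted p = 0.196). Without non-polysome two-cell library C, the only one of its group over the floor for Zscan4b, that gene was called (adjusted p = 7.67e-05).

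Between the M-phases of the first and the second division in polysomes, Zscan4a was called, with a higher level at the second division (3.54 ± 1.13 on the log2 scale, limma adjusted p = 0.0143), 1 of 8 members beside 11.2% of genes. The groups overlapped, since library A of two-cell M held 0.0239 FPKM and library A of zygote M 0.0497 FPKM. The call was lost without two-cell M library B or C (adjusted p = 0.0992 and 0.075) or zygote M library B or C (0.0574 and 0.0612). It was also lost with 1 FPKM added before the logarithm (log2 fold change 0.41, adjusted p = 0.44) and in a fit of these 2 groups alone (0.166). Zscan4f differed by 4.43 ± 1.85 (adjusted p = 0.0597) and was called without two-cell M library A or zygote M library A (0.0139 and 0.0252). Zscan4d differed by 4.36 ± 2.45 (adjusted p = 0.168) and was called without two-cell M library B (0.032). Tcstv1 was lower, by -3.45 ± 1.52 (adjusted p = 0.0746), without overlap, as were 31.3% of genes, and was called without two-cell M library C (0.0295).

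Polysome and non-polysome RNA of the same stage were compared to see how each member stood in polysomes relative to other genes. Since FPKM is scaled within each library, the share of a member's RNA on polysomes cannot be read from it. In two-cell embryos, Zscan4d, Tcstv1 and Tcstv3 were lower in every polysome library than in any non-polysome library, 3 of 8 members beside 9.41% of genes. None of these differences was called. They were -1.94 ± 2.45 on the log2 scale for Zscan4d (limma adjusted p = 0.712), -1.32 ± 1.52 for Tcstv1 (0.669) and -2.05 ± 1.67 for Tcstv3 (0.507). When the 2 two-cell M libraries with low Tcstv were left out of the fit, Tcstv3 was called lower (adjusted p = 0.0017), beside 10.8% of genes called in either direction. Zscan4b was called higher in polysomes (4.31 ± 1.21, adjusted p = 0.0227), beside 5.58% of genes, with overlapping groups, since non-polysome library C held 2.60 FPKM against 1.13, 0.773 and 2.31 in polysomes. That call was lost without polysome library A or C (adjusted p = 0.0529 and 0.0854) or non-polysome library A or B (0.146 and 0.161), with 1 FPKM added (0.161) and in a fit of these 2 groups alone (0.499).

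No member was called between the fractions at any other stage. In two-cell M 8.17% of genes were called, in GV oocytes 2.37%, in MII oocytes 0.558%, in zygotes 0.781% and in zygote M 1.61%. By unadjusted p under 0.05, 1 member, Zscan4f in zygotes, stood out (4.29 ± 1.85 on the log2 scale, limma adjusted p = 0.524), with 0.134, 0.232 and 0.237 FPKM in polysomes and the floor in all 3 non-polysome libraries. In two-cell M, Tcstv3 was 1.84 ± 1.67 lower in polysomes (adjusted p = 0.646). Without non-polysome library B, in which both Tcstv genes were near the floor, Tcstv3 was called lower in polysomes (adjusted p = 0.00719) and so was Tcstv1 (0.0361).

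In oocytes and zygotes, Zscan4 RNA was low but not equally so among copies. Zscan4d was over 0.1 FPKM in all polysome libraries of MII oocytes, at 2.55, 1.49 and 0.631 FPKM, and of zygotes, but at 0.01, 0.0845 and 0.0437 FPKM in those of GV oocytes. Zscan4c had 1.48, 0.605 and 0.0619 FPKM in polysomes of MII oocytes and at most 0.0758 FPKM in those of GV oocytes. In non-polysome RNA, Zscan4d had 0.0209, 3.18 and 0.01 FPKM in GV oocytes, and Zscan4c 0.167, 1.59 and 0.0594 FPKM in MII oocytes. Library B of each was thus apart from the other two, and for Zscan4d it was above every polysome library of oocytes and zygotes. Zscan4f reached 0.442 FPKM in MII oocytes, whereas Zscan4a and Zscan4b each passed 0.1 FPKM in 1 of the 24 oocyte and zygote libraries, polysome library A of MII oocytes. This library was also the highest polysome library of MII oocytes for Zscan4c, Zscan4d and Zscan4f.

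From GV to MII in polysomes, Zscan4d differed by 5.33 ± 2.45 on the log2 scale (limma adjusted p = 0.291), without overlap of the groups, as were 18.9% of genes in that direction, and Zscan4c by 4.27 ± 1.85 (adjusted p = 0.253). Tcstv1 went the other way, by -2.27 ± 1.52 (adjusted p = 0.546), and Tcstv3 by -1.71 ± 1.67 (adjusted p = 0.753), both without overlap of the groups, as were 13.9% of genes in that direction. No member was called, beside 3.39% of genes, and 2 of 8, Zscan4c and Zscan4d, had an unadjusted p under 0.05. In a fit of GV and MII polysome libraries alone, Zscan4d was called higher (adjusted p = 0.0388) and Tcstv1 and Tcstv3 lower (0.0202 and 0.038), beside 11.6% of genes called in either direction. When the 2 two-cell M libraries with low Tcstv were left out of the fit, Tcstv1 and Tcstv3 were called lower (adjusted p = 0.00186 and 0.0143), beside 4.12% of genes in either direction. No member was called from MII to zygote in polysomes either, beside 2.37% of genes, with an unadjusted p under 0.05 in 0 of 8. All 6 Zscan4 genes were called higher in polysomes of two-cell embryos than of GV oocytes, beside 4.3% of genes (adjusted p between 1e-05 and 0.0314). The calls of Zscan4b and Zscan4e are descriptions here too. Log2 fold changes ran from 6.34 ± 1.21 for Zscan4b to 8.20 ± 1.13 for Zscan4a. Their sizes depend on the floor, at which both genes were listed in 2 of 3 GV polysome libraries. Tcstv1 (-1.31 ± 1.52, adjusted p = 0.637) and Tcstv3 (0.67 ± 1.67, adjusted p = 0.863) were not called between these groups.

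In the M-phase of the zygote no member was called against interphase in polysomes, beside 3.47% of genes, and none had an unadjusted p under 0.05. Tcstv1 and Tcstv3 were higher in every polysome library of zygote M than in any of zygotes (1.65 ± 1.52 and 1.46 ± 1.67 on the log2 scale, limma adjusted p = 0.788 and 0.865), as were 12.5% of genes. Zscan4d was lower without overlap, at 0.830, 0.01 and 0.0384 FPKM in zygote M (-4.32 ± 2.45, adjusted p = 0.477), as were 28.4% of genes. In the fit of these 2 groups alone, Tcstv1 and Tcstv3 were called higher (adjusted p = 0.0351 and 0.0135), beside 18.1% of genes called in either direction, and so they were when the 2 two-cell M libraries with low Tcstv were left out (0.0286 and 0.0403), beside 4.03%. At the next division the same genes had estimates below 0.

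Other genes of the two-cell program, listed with earlier results of these data known, rose with the members. They were chosen for expression at this stage, and those near the floor elsewhere were tested only through two-cell or two-cell M libraries. Their rise, and their change in two-cell M given below, are therefore descriptions and support nothing. AF067061 is a relative of the Tcstv genes. The pseudogenes Zscan4-ps1, Zscan4-ps2 and Zscan4-ps3 share read-length windows with Zscan4 members, so where listed they are not independent of them. Of 44 listed, 41 were in the table and 40 were tested. From zygote to two-cell, 19 were called higher in polysomes, beside 5.14% of all genes, and 0 lower (median log2 fold change 4.86, against -0.85 over all genes), and in non-polysome RNA 26 were called higher, beside 6.1%, and 0 lower (median 6.51 against -1.19). The sizes of these folds depend on the floor, where many of the genes lay in zygotes. Gm16381, a PRAME family gene, rose from 0.114 ± 0.0642 to 137 ± 78.5 FPKM in polysomes (SD, n = 3, limma adjusted p = 3.27e-08). AF067061 rose from 0.0743 ± 0.111 to 33.5 ± 2.34 FPKM (adjusted p = 8.27e-05), and Tmem92, a membrane protein gene, from 1.02 ± 0.534 to 22.1 ± 4.77 FPKM (adjusted p = 0.00294). B020031M17Rik was at 26.9 ± 4.02 FPKM in two-cell embryos (adjusted p = 0.00175), while its highest polysome mean, 40.7 FPKM, was at another stage. Gm4027 reached 13.1 ± 4.25 FPKM (adjusted p = 1.95e-05).

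In two-cell M, 6 of the 40 genes were called lower in polysomes against two-cell embryos, near the 15.6% over all genes, and 0 higher (median -1.09 against -0.35). In non-polysome RNA 9 were called lower, beside 14.7%, and 2 higher, beside 5.43% (median -2.32 against -0.12). Gm16381 had 104 ± 29.7 FPKM in polysomes of two-cell M (SD, n = 3, limma adjusted p = 0.945), and AF067061 17.7 ± 13.8 FPKM (adjusted p = 0.667). Non-polysome RNA held 532 ± 139 FPKM of Gm16381 in two-cell embryos and 118 ± 74.8 in two-cell M. For AF067061 these levels were 193 ± 106 and 53.1 ± 30.5 FPKM.

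Known activators and repressors of the two-cell program formed a second list. Of 16, 0 were called higher and 1 lower, beside 5.14% and 8.95% of all genes, in polysomes from zygote to two-cell (median -1.16 against -0.85 over all genes), the repressor L3mbtl2, a Polycomb-related protein (2.12 ± 0.218 to 0.0231 ± 0.0115 FPKM, SD, n = 3, limma adjusted p = 0.00613). From two-cell to two-cell M in polysomes, 4 were called higher, beside 6.84% of all genes, and 2 lower, beside 15.6% (median 0.87 against -0.35). The genes called higher were the repressors Trim28, a corepressor of retroelements (0.652 ± 0.659 to 5.37 ± 1.88 FPKM, adjusted p = 0.0107), L3mbtl2 (adjusted p = 0.0168) and Chaf1b, a subunit of the histone chaperone CAF-1 (adjusted p = 0.045), and Smarca5, a chromatin remodeller listed as an activator (adjusted p = 0.0434). Those lower were Max, a partner of MYC family proteins (3.55 ± 0.829 to 0.429 ± 0.115 FPKM, adjusted p = 0.0251), and Lin28a, an RNA-binding protein (adjusted p = 0.026), both listed as repressors.

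Genes of the processes in which ZSCAN4 takes part, such as telomere maintenance and DNA methylation, formed another list. Of 18 listed, 17 were tested, and 1 was called higher and 2 lower in polysomes from zygote to two-cell, near the 5.14% and 8.95% of all genes (median -1.33 against -0.85). Terf2ip, encoding the shelterin subunit RAP1, rose from 0.0501 ± 0.0123 to 2.24 ± 1.27 FPKM (SD, n = 3, limma adjusted p = 6.05e-05). Pot1b, a shelterin protein that binds single-stranded telomeric DNA, was listed at 0.1002 ± 0.027 FPKM in zygotes and 0.0117 ± 0.0023 in two-cell embryos (adjusted p = 0.0454). From two-cell to two-cell M, 0 were called higher, beside 6.84%, and 2 lower, beside 15.6% (median -0.39 against -0.35). Acd, encoding the shelterin subunit TPP1, fell from 153 ± 73.7 to 2.62 ± 4.23 FPKM (adjusted p = 4.05e-08).

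Markers of other cell types were read beside these results. Of 4 haemoglobin genes in the table, the alpha-globin genes Hba-a1 and Hba-a2 rose in two-cell embryos with the members. Hba-a1 was at 53.4 ± 26.0 FPKM in polysomes of two-cell embryos (SD, n = 3) against 0.0591 ± 0.0513 in zygotes (limma adjusted p = 0.000673). The beta-globin genes Hbb-bs and Hbb-bt were at or under 0.0404 FPKM in every two-cell and two-cell M library. Summed over the 4 genes, the level was 34.3 to 83.7 FPKM in polysomes and 99.7 to 162 FPKM in non-polysome RNA of two-cell embryos, and 0.04 to 0.861 FPKM in oocytes and interphase zygotes. The 9 cumulus and granulosa markers in the table summed to at most 0.247 FPKM in polysomes of two-cell embryos, and to 0.0924 to 20.2 FPKM in non-polysome RNA, where 1 library had 20.1 FPKM of Inha. Of this list, 2 genes were tested and Inha was called higher in polysomes from GV to MII (limma adjusted p = 0.0339). It was at the floor in all GV libraries, at 0.626 to 4.48 FPKM in polysomes of MII oocytes and at 0.0442 to 23.5 FPKM in their non-polysome RNA. The 3 sperm markers in the table summed to 1.96 to 6.32 FPKM in polysomes of two-cell embryos and to 1.41 to 5.88 FPKM in those of GV oocytes, 2.53 to 4.86 in MII oocytes and 1.94 to 3.03 in zygotes and zygote M. They were at the floor in non-polysome RNA of two-cell embryos and in both fractions of two-cell M. Their part in the members' values was not tested.

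Members varied together within each family over the 36 libraries. Between the 6 Zscan4 genes, Pearson's r of log2 FPKM was 0.43 to 0.83 over 15 pairs, with a median of 0.64, and between Tcstv1 and Tcstv3 it was 0.86. Across the families it was -0.20 to 0.41 over 12 pairs, with a median of 0.16. These correlations are descriptions: libraries of 1 group share a stage, many values lie at the floor, and near-identical copies share reads.

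The genes whose pattern was most like that of Zscan4d, among the protein-coding genes outside the 8 members whose mean reached 1 FPKM, of 4183 such genes in all, were Bambi (r = 0.61), Tmem92 (0.60), Fzd4 (0.60), Gm5890 (0.60) and Krt18 (0.59). Bambi, encoding a pseudoreceptor of the TGF-beta family, was at 7.41 ± 4.74 FPKM in polysomes of two-cell embryos and 7.97 ± 1.49 FPKM in two-cell M (SD, n = 3). Krt18, a simple epithelial keratin gene, was at 19.4 ± 8.79 FPKM in two-cell embryos and at 0.0536 ± 0.0477 FPKM in two-cell M. The genes outside the 8 members most like Tcstv1 were Sin3b (r = 0.87), Rhpn2 (0.79), Cnppd1 (0.79), Pnp (0.78) and B9d1 (0.78). Sin3b, encoding a scaffold of histone deacetylase complexes, had 13.2 ± 2.57 FPKM in polysomes of GV oocytes, 10.5 ± 1.17 in two-cell embryos and 2.26 ± 2.81 in two-cell M. The low two-cell M mean of Sin3b, like that of Tcstv1, covered libraries from 0.138 to 5.45 FPKM.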

How the data were processed

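The authors trimmed 150-base paired reads with Trim Galore 0.4.1, mapped them to GRCm38 with STAR 2.5.3a and computed FPKM over RefSeq genes in Partek, as their methods and the submitters' processing notes state; the deposited table holds these normalized FPKM values, with a floor of 0.01. Libraries were made by an unstranded whole-transcript method. Mapping used the default parameters of STAR, as the methods state. How reads that fit several copies were then counted is not given in the sources used here. For the tests, the log2-transformed FPKM (no pseudocount) entered a limma model (version 3.58.1, R 4.3.3) with 1 mean for each of the 12 groups and all 36 libraries; variances were moderated by eBayes with a mean trend. Genes over 0.1 FPKM in at least 3 libraries were tested (16135, all 8 members included). Calls needed a Benjamini-Hochberg adjusted p under 0.05 and a fold change over 2, two-sided. The design text gives biological triplicates. Beside every member, up to 6 genes per list called in either polysome comparison of two-cell embryos were named by level, and 5 genes of most similar pattern for Zscan4d and for Tcstv1. Some genes of these lists are counted but not reported by name here. Alternatives were other offsets, filters, a quantile normalization, fits of the compared groups alone, replicate blocks and fits without 1 library. Both fractions of 1 stage and letter came from the same gradient, as the methods and the shared letters give it, while the main fit treats them as independent; their residuals correlated at -0.00056 to 0.159, over 0.1 in 4 of 18 pairs, and a fit with the gradient as a block was among the alternatives. Without counts or depths, only the spread between libraries could be given as error. Promoters came from RefSeq (GRCm38.p6) and transcripts from GENCODE vM21, aligned with Biopython 1.88. The members and lists were chosen with earlier results of these data known. The fit was tested on simulated data, the outcome of which is not given here.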

Additional observations from a re-analysis of the deposited data

How the results depend on the processing

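Among 1348 member changes recomputed under alternatives, 1207 kept direction and side of the threshold, 43 lost a call, 54 gained one and 44 changed sign, 43 of these in members called neither way and all of them in 18 combinations of member and comparison. Log2 fold changes that changed sign were, with 0.1 FPKM added and with 1 added, -0.043 and -0.011 for Zscan4c in polysome two-cell M against zygote M, -0.098 and -0.57 for Tcstv1 between fractions in two-cell M, and -0.22 and -0.18 for Zscan4f in the interaction of two-cell M with fraction. With quantile normalization they were 0.10 for Zscan4a and 0.22 for Zscan4e in zygote M against zygote, 0.25 for Zscan4a between fractions in two-cell and 0.12 for Zscan4f between fractions in two-cell M. Without both two-cell M libraries low in Tcstv they were 2.81 for Zscan4f and -1.22 for Tcstv1 between fractions in two-cell M and -0.43 for Tcstv3 in the interaction. Leaving out 1 replicate in turn, the ranges that crossed 0 were -3.98 to 0.28 for Zscan4d in polysome two-cell M against two-cell, -5.12 to 0.088 for Zscan4f in non-polysome two-cell M against two-cell, -1.16 to 1.08 for Zscan4c in polysome two-cell M against zygote M, and -0.29 to 2.08 for Zscan4a and -0.65 to 1.15 for Zscan4b in MII against GV. Between fractions in two-cell they were -1.10 to 0.31 for Zscan4a and -0.027 to 1.21 for Zscan4e. Between fractions in two-cell M they were -4.27 to 1.01 for Zscan4f, -5.20 to 0.88 for Tcstv3, -3.18 to 2.14 for Tcstv1 and -5.03 to 0.44 for Zscan4c. In the interaction they were -3.06 to 2.23 for Zscan4f, -3.15 to 2.93 for Tcstv3, -3.98 to 1.48 for Zscan4c, -1.85 to 3.47 for Tcstv1 and -1.21 to 0.027 for Zscan4e. Counts of members called follow, in the order polysome two-cell against zygote, polysome two-cell M against two-cell, polysome zygote M against zygote, polysome MII against GV, polysome two-cell M against zygote M, non-polysome two-cell against zygote, non-polysome two-cell M against two-cell, polysome against non-polysome RNA, first for two-cell embryos, then for two-cell M, and the interaction of two-cell M with fraction. They were 3, 4, 0, 0, 1, 5, 4, 1, 0 and 0 as reported. With 0.1 FPKM added before the logarithm, the first became 5 and non-polysome two-cell M against two-cell 5. With 1 added, these were also 5, non-polysome two-cell against zygote was 6, polysome against non-polysome in two-cell 0, and the member called in polysome two-cell M against zygote M was Tcstv1 (adjusted p = 0.0423) in place of Zscan4a. With genes kept at a geometric mean of at least 0.1 FPKM, or at a mean of at least 1 FPKM, only 5 members were tested. Polysome two-cell against zygote then gave 0, polysome two-cell M against two-cell 1 and non-polysome two-cell against zygote 3. Polysome against non-polysome in two-cell gave 0, and non-polysome two-cell M against two-cell 3 (Zscan4c, Zscan4d and Tcstv1). In polysome two-cell M against zygote M, Zscan4f was called (limma adjusted p = 0.0466 and 0.0483) in place of Zscan4a. Without a filter, non-polysome two-cell against zygote gave 4 and non-polysome two-cell M against two-cell 3, and with robust empirical Bayes moderation the former gave 4. Quantile normalization gave 5 for the first, 2 for polysome two-cell M against zygote M, 6 for non-polysome two-cell against zygote and 3 for non-polysome two-cell M against two-cell (Zscan4d, adjusted p = 0.0643), and moved the median change of all genes in the first from -0.85 to -0.04. With only the groups compared, the 10 counts were 8, 3, 2, 3, 0, 6, 1, 0, 0 and 0, while the genes called went from 2273 to 4316 in the first, from 3620 to 1710 in the second, from 560 to 2923 in zygote M, from 547 to 1875 in MII, from 3250 to 559 in non-polysome two-cell M, from 1442 to 67 between fractions in two-cell, from 1318 to 0 in two-cell M and from 547 to 235 in the interaction. Polysome two-cell M replicate A and non-polysome two-cell M replicate B, both low in Tcstv, were left out together as an alternative chosen after seeing the data, which gave 4, 2, 2, 2, 3, 7, 4, 2, 1 and 0. Leaving out 1 replicate in turn gave lowest and highest counts of 3 and 3, 2 and 5, 0 and 0, 0 and 0, 0 and 2, 4 and 5, 2 and 5, 0 and 1, 0 and 2, and 0 and 1. In these fits a group left with 2 libraries shares the spread of the others. With the replicate letter as a replicate block the counts were 3, 4, 0, 0, 1, 4, 3, 1, 0 and 0 (Zscan4d in non-polysome two-cell against zygote, limma adjusted p = 0.141, and Tcstv1 in non-polysome two-cell M against two-cell, 0.0511), and with a block by gradient 3, 4, 0, 0, 1, 4, 4, 1, 0 and 0. The block by gradient changed no other call than that of Zscan4d in non-polysome two-cell against zygote (0.0527). The cause of these changes was not tested. The depth of the libraries is unknown, so values near the floor of 0.01 FPKM set no limit on absence.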
